A study of Mus musculus with 21 samples.

Results

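Iron storage and transport were examined by RNA-seq in the midbrain of 21 mice through 8 genes, namely Fth1, Ftl1, Tfrc, Trf, Slc40a1, Aco1, Ireb2 and Cp. They were picked by gene name, and all 8 were found among the 33829 genes listed for a pre-treatment experiment and the 55385 genes listed for a delayed treatment experiment. All 8 also passed the filter on low counts, which left 22641 and 21922 genes for testing. All mice were male C57BL/6 mice, wild type as far as the labels say, with an age of 6 weeks in the labels, and each group held 3 mice. The labels give the tissue as midbrain, and the study's methods describe nigral tissue taken by hand after perfusion.

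In the pre-treatment experiment (9 mice), control mice received ddH2O intraperitoneally for 10 days. MPTP treated mice received ddH2O for 5 days and then MPTP at 30 mg/kg per day for 5 days, and the third group received irisin at 200 μg/kg per day for 5 days and then the same MPTP course. In the delayed treatment experiment (12 mice), control mice again received ddH2O for 10 days, and a second group received ddH2O for 5 days and irisin for 5 days. The other groups received MPTP for 5 days followed by 5 days of either ddH2O or irisin, at the same doses. MPTP is a toxin whose product in the brain is taken up by dopaminergic neurons and blocks mitochondrial complex I. Irisin is cleaved from the muscle membrane protein FNDC5 and enters the blood during exercise.

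Iron travels in blood bound to transferrin (Trf), enters cells through the transferrin receptor (Tfrc), and is stored inside the ferritin shell, which is built from heavy (Fth1) and light (Ftl1) chains. Ferroportin (Slc40a1) is the known exporter of iron from cells, and the ferroxidase ceruloplasmin (Cp) oxidizes the iron that leaves so that transferrin can bind it. In the brain, oligodendrocytes are rich in ferritin and make transferrin, endothelial cells of the blood-brain barrier carry the transferrin receptor, and iron accumulates in the substantia nigra in Parkinson's disease. When iron is scarce, the iron regulatory proteins IRP1 (Aco1, which otherwise works as cytosolic aconitase) and IRP2 (Ireb2) bind a hairpin called the iron-responsive element in messenger RNAs, blocking translation from a 5′ UTR and protecting the message from a 3′ UTR.

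The loop of that hairpin is short enough to be searched by its letters, and windows that hold it are shown because ferritin, ferroportin and the transferrin receptor are known targets of the regulators. A match of letters is a description and not a binding site. The pattern C, 5 bases of any kind, CAGTG and 1 base of any kind was searched on the transcript strand of the UTRs of 1 transcript per gene (GENCODE M21, mouse build GRCm38). Capitals mark the loop, and each window of 30 bases is given 5′ to 3′ on the gene's own strand.
Fth1 5′ UTR, exon 1, chr19:9982729-9982758, plus strand: ggtttcctgcttcaaCAGTGCttgaacgga
Ftl1 5′ UTR, exon 1, chr7:45459781-45459810, minus strand: tgtgtcttgcttcaaCAGTGTttgaacgga
Slc40a1 5′ UTR, exon 1, chr1:45925467-45925496, minus strand: ttccaacttcagctaCAGTGTtagctaagt
Tfrc 3′ UTR, exon 19, first match, chr16:32631216-32631245, plus strand: gataattatcggaagCAGTGCcttccataa
Tfrc 3′ UTR, exon 19, second match, chr16:32631595-32631624, plus strand: tcacattatcgggagCAGTGTcttccataa
Tfrc 3′ UTR, exon 19, last match, chr16:32631707-32631736, plus strand: cgtaattatcgggaaCAGTGTttcccataa

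Fth1, Ftl1 and Slc40a1 each held 1 match in the 5′ UTR, where 6.84% of 20329 genes with a coding transcript held at least 1. Tfrc held 5 matches in its 3′ UTR, a number that 0.541% of these genes reached, and 2 of the 5 windows overlap each other. A single match in a 3′ UTR is common, with 28.9% of genes holding at least 1. Fth1 had 1 such match and Ireb2 had 2, and Trf, Aco1 and Cp had none in either UTR. Translation and binding by the regulators were not measured here, since RNA-seq gives the amount of each message only.

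In the coordinates of the deposited tables (GRCm38) the genes lie apart from each other. Fth1 (ENSMUSG00000024661) is at chr19:9980598-9985092 on the plus strand and Ftl1 (ENSMUSG00000050708) at chr7:45457944-45459884 on the minus strand. Tfrc (ENSMUSG00000022797) is at chr16:32608920-32632794 on the plus strand and Trf (ENSMUSG00000032554) at chr9:103204001-103230444 on the minus strand. Slc40a1 (ENSMUSG00000025993) is at chr1:45908068-45926523 on the minus strand and Cp (ENSMUSG00000003617) at chr3:19957054-20009145 on the plus strand. Aco1 (ENSMUSG00000028405) is at chr4:40143081-40198338 and Ireb2 (ENSMUSG00000032293) at chr9:54863789-54912530, both on the plus strand.

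The deposited FPKM values, which scale counts to gene length and library size, put the 8 genes in a wide order of level. In the pre-treatment experiment Fth1 stood highest at 693 ± 86.8 FPKM (SD, n = 9), and Trf followed at 212 ± 26.2 FPKM and Ftl1 at 69.4 ± 4.55 FPKM. Tfrc was at 20.1 ± 2.28 FPKM, Ireb2 at 8.17 ± 0.527 FPKM and Aco1 at 6.96 ± 0.445 FPKM. The export genes were lowest, Cp at 1.75 ± 0.215 FPKM and Slc40a1 at 1.15 ± 0.298 FPKM, and theirs were the only neighbouring ranges that overlapped. The delayed treatment experiment gave Fth1 768 ± 70.5 FPKM (SD, n = 12), Trf 266 ± 30.7 FPKM, Ftl1 100.2 ± 10.1 FPKM and Tfrc 14.7 ± 1.31 FPKM. There Aco1 at 8.16 ± 0.354 FPKM stood above Ireb2 at 6.45 ± 0.482 FPKM, with Cp at 2.02 ± 0.302 FPKM and Slc40a1 at 1.11 ± 0.174 FPKM, and no neighbouring ranges overlapped. The lengths are those behind the deposited values. For each of the 8 genes, counts and FPKM imply a length above that of the transcript searched above, by the largest factor for Fth1. The order of genes close in level, such as Aco1 and Ireb2, depends on them. Scaled to the searched transcripts (3832 bases for Aco1, 5770 for Ireb2), the median of Ireb2 would lie above that of Aco1 in both experiments. The 2 experiments are separate tables and levels were not tested between them.

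**Figure D1:**
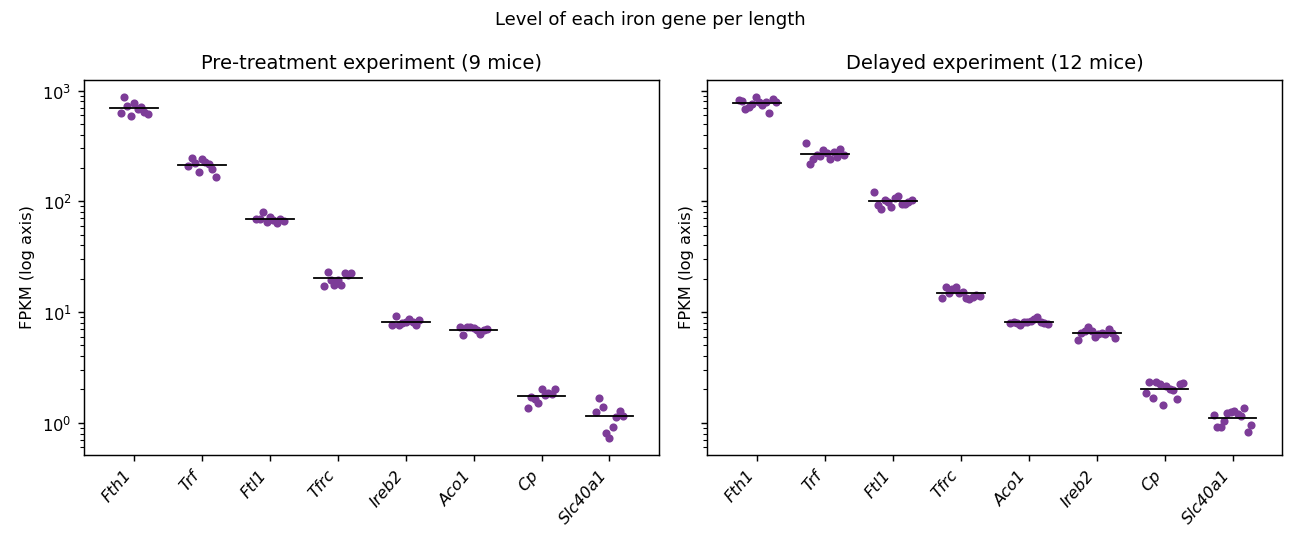
FPKM of each iron gene (log axis) in the 9 mice of the pre-treatment experiment (left) and the 12 mice of the delayed treatment experiment (right), 1 point per mouse and a line at the mean, with genes ordered by mean level. Levels run from 693 and 768 FPKM for Fth1 down to 1.15 and 1.11 FPKM for Slc40a1. On this scale Aco1 and Ireb2 change places between the experiments, which depends on the gene lengths behind the FPKM values.

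The message of the heavy ferritin chain stood above that of the light chain in every mouse on the FPKM scale. The size of their ratio depends on the gene lengths behind the deposited values, and protein was not measured. The searched transcripts are close in length, 929 bases for Fth1 and 968 for Ftl1. In the pre-treatment experiment each mouse had at least 160743 counts of Fth1 and at most 8246 of Ftl1. Scaled to those transcripts, the ratio would be larger than the FPKM ratio given here. The ratio of Fth1 to Ftl1 was 9.05 to 12.4 over the 9 mice of the first experiment and 6.63 to 9.82 over the 12 mice of the second. Within each experiment the ranges of the groups overlapped, with medians of 9.20 in control, 9.98 in MPTP treated and 9.26 in irisin pre-treated mice, and of 8.04 in control, 7.63 in irisin treated, 7.29 in MPTP treated and 7.66 in delayed irisin mice. Ferritin pseudogenes took few reads, the largest being Ftl1-ps1 with 2.14% and 2.05% of the Ftl1 count. How counting treated reads that match both a gene and a pseudogene is not given in the sources used here. These shares therefore set no bound on ferritin reads left out. Ftl1 also shares 109 exonic bases with Gm22133 on the same strand, which had up to 2075 and 2905 counts in a mouse. Cp shares 108 exonic bases with Hps3 on the opposite strand, which had up to 1899 and 1320 counts, and Trf shares 2108 with Gm20425 on the same strand, which had at most 2 counts in the pre-treatment experiment. The levels of Ftl1, Cp and Trf are uncertain to the extent that counting split, shared or left out such reads.

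None of the 8 genes passed an adjusted p of 0.05 in any of 6 comparisons by the quasi-likelihood test of edgeR after Benjamini-Hochberg adjustment over the whole table, so 0 of 48 tests were called. DESeq2 called 1 of the 48, Slc40a1 in MPTP treated against control mice of the pre-treatment experiment. Without adjustment, edgeR gave a p under 0.05 in 3 of 48, all in the pre-treatment experiment: Slc40a1 in both comparisons and Tfrc with irisin. Over all tested genes that share was 3.90 to 8.97% in the 6 comparisons, so 3 of 48 is near the background. Apart from the tests of Slc40a1 and the 1 test of Tfrc, the remaining 41 log2 fold changes lay between -0.17 and 0.15 and all their 95% intervals spanned 0. Values below are CPM, the share of a library's counts that a gene takes after scaling with TMM factors, which compare 1 gene between mice of an experiment and not different genes. A p-value of edgeR weighs a group difference against the spread between mice. That spread is estimated from all groups of an experiment, with information shared across genes. In bulk tissue fewer cells of a type and less RNA per cell cannot be told apart.

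**Figure D2:**
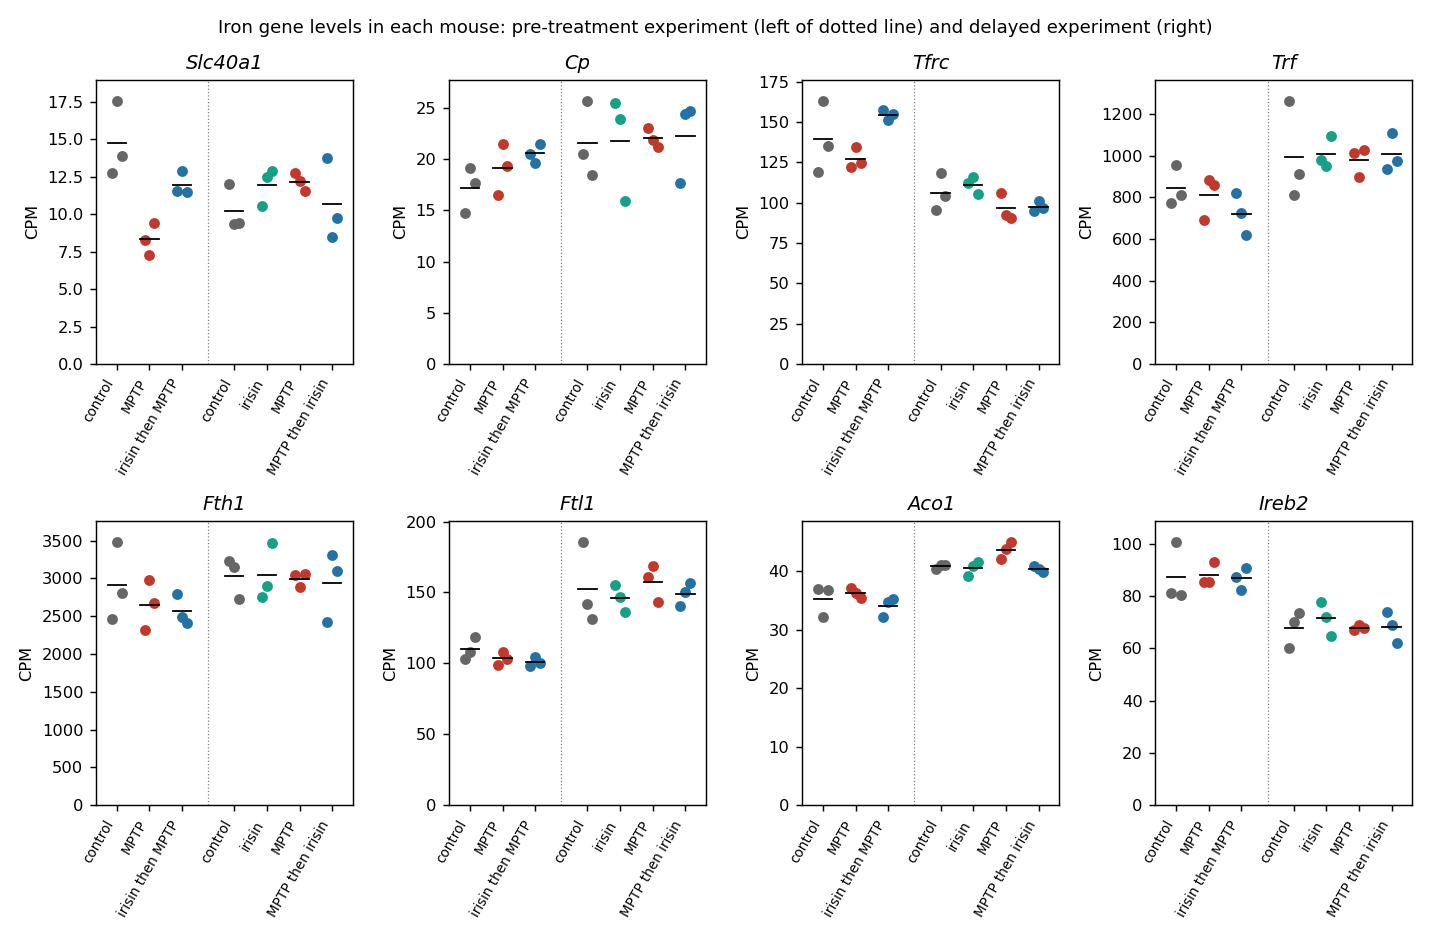
CPM of each iron gene in each mouse, with 3 points and a line at the mean for each of the 7 groups, the pre-treatment experiment left of the dotted line and the delayed treatment experiment right of it, and each vertical axis starting at 0. MPTP treated mice sit below both other groups for Slc40a1 left of the line (7.29 to 9.43 CPM) and, by a small margin, above the 3 other groups for Aco1 right of it (42.0 to 45.0 CPM).

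MPTP against control mice in the pre-treatment experiment asks what the toxin did by the end of its course. Slc40a1, the iron exporter, was at 12.7, 17.6 and 13.9 CPM in control mice and at 8.30, 7.29 and 9.43 CPM in MPTP treated mice. Each MPTP treated mouse was below each control mouse. The log2 fold change was -0.82 ± 0.15 (SE), which is 0.566 of the control level, with a 95% interval of -1.16 to -0.48. Its unadjusted p of 0.000399 was the 25th smallest of 22641 genes, and it did not pass edgeR's Benjamini-Hochberg adjustment (adjusted p = 0.361). DESeq2 gave a log2 fold change of -0.82 with an adjusted p of 0.000691, so the call depends on the tool. Over all alternatives edgeR and DESeq2 gave adjusted p-values of 0.000691 to 0.908.

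Few genes were called in this comparison by edgeR, 5 of 22641 (0.0221%), and DESeq2 called 0.459% of the same genes. Of the 8 iron genes, Slc40a1 alone was separated between the groups without overlap, beside 11.6% of all tested genes, and alone had an unadjusted p under 0.05, beside 6.03% of all tested genes. The 8 log2 fold changes had a median of -0.07, 5 of them negative, against a median of -0.002 over all genes. The second control mouse was the highest of the 9 mice for 5 of the 8 genes, Slc40a1 among them, and without it the log2 fold change of Slc40a1 was -0.67 (edgeR adjusted p = 0.395).

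Markers of endothelial cells and microglia, which are among the cells that carry ferroportin, were examined beside Slc40a1. Summed endothelial markers were 230 to 287 CPM in control mice, and the MPTP treated mice at 236 to 240 CPM lay inside that range. Of the 6 markers 4 were lower and 2 higher, with a median log2 fold change of -0.10. Cldn5, a tight junction protein of endothelial cells, was the only 1 of the 6 with an unadjusted p under 0.05 by edgeR. It was picked after its value was seen, at a log2 fold change of -0.44 (edgeR unadjusted p = 0.000836, Benjamini-Hochberg adjusted p = 0.485). Summed microglia markers were 187 to 208 CPM in control and 169 to 199 CPM in MPTP treated mice, with 4 of 6 lower and 2 higher. Cx3cr1, picked in the same way, was the only 1 of these 6 with an unadjusted p under 0.05. Its log2 fold change was -0.69 (edgeR unadjusted p = 0.00139, adjusted p = 0.579). None of either list was at 0, and their part in the Slc40a1 difference was not tested. One MPTP treated mouse (the second) stood apart in choroid plexus markers, with 1640 summed CPM against 10.4 to 27.4 CPM in the other 8 mice, and without it the log2 fold change of Slc40a1 was -0.73 (edgeR adjusted p = 0.719).

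Cp, the ferroxidase that works with ferroportin, was at 14.7, 19.2 and 17.7 CPM in control mice and at 16.5, 21.5 and 19.3 CPM in MPTP treated mice of the pre-treatment experiment. The ranges overlapped, with a log2 fold change of 0.15 ± 0.13 (SE) and a 95% interval of -0.14 to 0.45. Tfrc, the uptake receptor, was at 118.9, 163.2 and 135.4 CPM in control and at 122.4, 134.7 and 124.4 CPM in MPTP treated mice, and its interval ran from -0.37 to 0.11. Trf, the carrier, ranged from 770 to 953 CPM in control and from 690.5 to 882 CPM in MPTP treated mice, with an interval of -0.36 to 0.24. None of these genes was separated between the groups.

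The ferritin chains and the regulators also overlapped between MPTP treated and control mice. Fth1 was at 2460.3, 3480.1 and 2803.6 CPM in control and at 2313.3, 2979.2 and 2670.9 CPM in MPTP treated mice, a log2 fold change of -0.13 ± 0.13 (SE). Ftl1 ranged from 103.4 to 118.8 CPM in control and from 98.8 to 108.3 CPM in MPTP treated mice, a log2 fold change of -0.09 ± 0.07 (SE). All 8 oligodendrocyte markers were lower in MPTP treated mice, with a median log2 fold change of -0.21. Their summed levels were 8513 to 11038 CPM against 9424 to 14165 CPM in control mice. The value of 14165 CPM came from the second control mouse. The other control mice, at 9424 and 9989 CPM, lay below the MPTP treated mice at 11038 and 10554 CPM. Their part in the ferritin values and in the Slc40a1 value was not tested. Aco1 and Ireb2, which encode the regulators, had log2 fold changes of 0.04 ± 0.08 and 0.01 ± 0.10 (SE), with 95% intervals of -0.14 to 0.22 and -0.21 to 0.23.

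**Figure D3:**
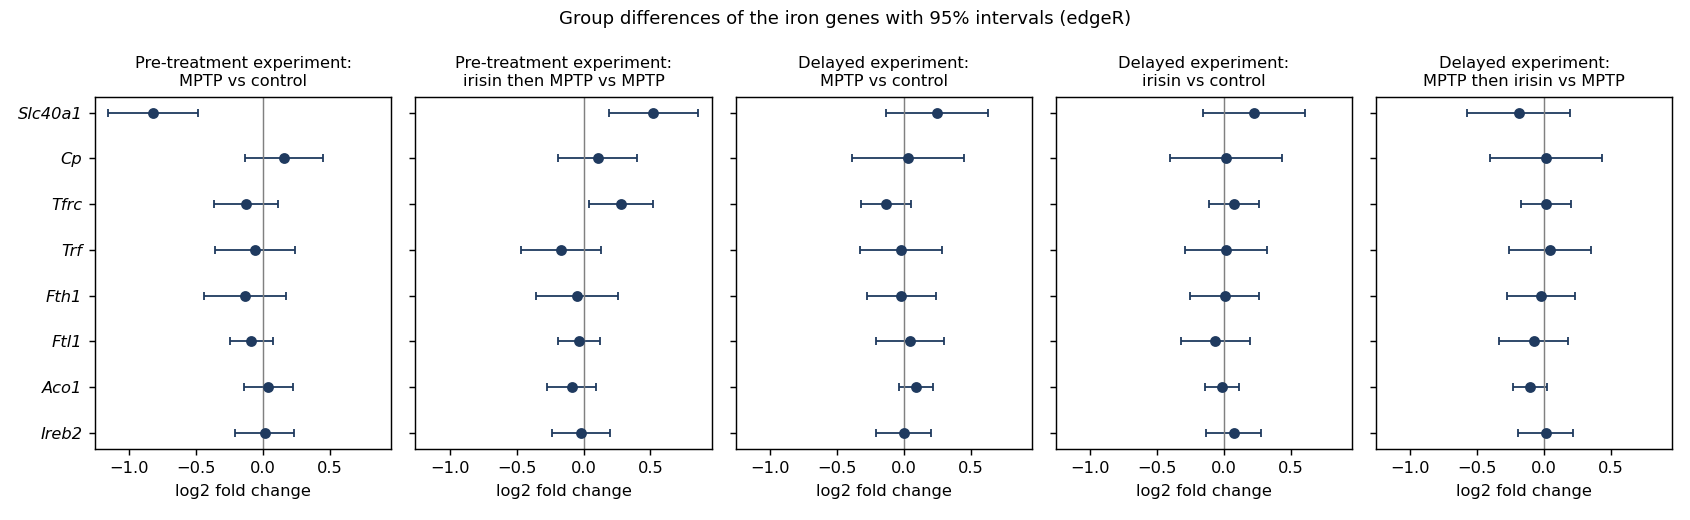
Log2 fold change of each iron gene (points) with its 95% interval from edgeR (bars) in 5 comparisons, on a common horizontal axis with a line at 0. Only Slc40a1 in both comparisons of the pre-treatment experiment and Tfrc with irisin pre-treatment have intervals that do not reach 0, and no gene passed the Benjamini-Hochberg adjustment.

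Irisin pre-treatment with MPTP against MPTP alone asks whether irisin given first altered the state reached with the toxin. Slc40a1 was at 11.6, 12.9 and 11.5 CPM with irisin, against the 8.30, 7.29 and 9.43 CPM of MPTP treated mice given above, so each irisin pre-treated mouse was above each MPTP treated mouse. The log2 fold change was 0.52 ± 0.15 (SE), with a 95% interval of 0.19 to 0.86, an unadjusted p of 0.00663 and an adjusted p of 0.545 by edgeR with Benjamini-Hochberg adjustment. DESeq2 gave an adjusted p of 0.132, and over all alternatives the adjusted p was 0.132 to 0.913. The same MPTP treated mice enter both comparisons of this experiment, so the opposite signs of the Slc40a1 values are not independent of each other.

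Tfrc was at 157.5, 151.4 and 154.9 CPM with irisin pre-treatment and at 122.4, 134.7 and 124.4 CPM with MPTP alone. The irisin pre-treated mice lay close to each other, above every MPTP treated mouse and inside the range of the control mice. The log2 fold change was 0.28 ± 0.11 (SE), with a 95% interval of 0.04 to 0.52, an unadjusted p of 0.0260 and an adjusted p of 0.727 by edgeR with Benjamini-Hochberg adjustment. Red blood cell markers, a cell lineage in which Tfrc is also known to act, were lower for 5 of 5 genes in the same comparison, with summed levels of 231 to 455 CPM against 549 to 810 CPM, and their part in the Tfrc value was not tested.

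Aco1 was the third gene without overlap, at 32.3, 34.8 and 35.4 CPM with irisin pre-treatment and at 37.2, 36.3 and 35.5 CPM with MPTP alone. Its difference was small, a log2 fold change of -0.09 ± 0.08 (SE) with a 95% interval of -0.27 to 0.09 (edgeR unadjusted p = 0.300). In all, 3 of 8 iron genes were separated without overlap, beside 14.2% of all tested genes, and 2 of 8 had an unadjusted p under 0.05, beside 6.22%. edgeR called 16 genes (0.0707%) and DESeq2 194 genes (0.857%) in this comparison, with none of the 8 among them.

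The other genes overlapped between irisin pre-treated and MPTP treated mice. Cp was at 20.5, 19.7 and 21.5 CPM with irisin, a log2 fold change of 0.11 ± 0.13 (SE). Trf was at 819.5, 725.7 and 619.7 CPM, a log2 fold change of -0.17 ± 0.13 (SE) with an interval of -0.47 to 0.13. Fth1 (-0.05 ± 0.13), Ftl1 (-0.03 ± 0.07) and Ireb2 (-0.02 ± 0.10) had log2 fold changes below their standard errors. The median over the 8 genes was -0.03, against 0.003 over all genes. Of the 6 endothelial markers 3 were higher and 3 lower with irisin pre-treatment, with a median log2 fold change of 0.01 and summed levels of 244 to 254 CPM against 236 to 240 CPM. By edgeR 4 of the 6 had an unadjusted p under 0.05, so these 4 included both higher and lower markers, and 0 passed after adjustment. Cldn5, picked after its value was seen, was among the higher ones at 0.53 (edgeR adjusted p = 0.129). All 7 dopaminergic neuron markers had negative log2 fold changes in the same comparison, with a median of -0.55, summed levels of 529 to 619 CPM against 529 to 846 CPM, and 2 of 7 at an unadjusted p under 0.05 by edgeR. The part of these cells in the Slc40a1 and Tfrc values was not tested.

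In the delayed treatment experiment MPTP was followed by 5 days without it, and MPTP treated mice are again set against control mice. All 7 dopaminergic neuron markers had negative log2 fold changes here, with a median of -0.58 and summed levels of 454 to 578 CPM against 667 to 701 CPM, whereas 3 of 7 were negative for MPTP against control in the pre-treatment experiment. Slc40a1 was at 11.99, 9.32 and 9.42 CPM in control mice and at 12.8, 12.2 and 11.5 CPM in MPTP treated mice. The ranges overlapped, and the log2 fold change was 0.25 ± 0.17 (SE) with a 95% interval of -0.14 to 0.63. The interval in the pre-treatment experiment lay wholly below 0, and the difference between the experiments was not tested.

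Aco1 gave the closest values of the 8 genes in this experiment. Its spread within groups was an SD of 0.035 on the log2 scale, and 0.342% of all tested genes had a smaller one. Aco1 was at 40.4, 41.1 and 41.2 CPM in control and at 42.0, 43.8 and 45.0 CPM in MPTP treated mice, so the groups did not overlap. The log2 fold change was 0.09 ± 0.06 (SE), with a 95% interval of -0.03 to 0.22 (edgeR unadjusted p = 0.134, Benjamini-Hochberg adjusted p = 0.723). Aco1 was 1 of 8 iron genes without overlap, beside 16.2% of all tested genes.

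None of the other iron genes was separated between MPTP treated and control mice of the delayed treatment experiment. Tfrc was at 95.2, 118.1 and 104.2 CPM in control and at 106.0, 92.6 and 90.6 CPM in MPTP treated mice, a log2 fold change of -0.13 ± 0.09 (SE). Trf spread most widely in the control mice, at 1262.6, 812.2 and 910.7 CPM, and the MPTP treated mice at 1013.8, 895.6 and 1027.6 CPM lay inside that range. Fth1 (-0.02 ± 0.12), Ftl1 (0.05 ± 0.12), Cp (0.03 ± 0.19) and Ireb2 (0.0002 ± 0.09) had log2 fold changes below their standard errors. By edgeR 29 genes (0.132%) were called in this comparison and by DESeq2 191 (0.871%), and 8.33% of all genes had an unadjusted p under 0.05, with 0 of the 8 iron genes in any of these counts.

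Irisin alone against control mice asks what irisin does without the toxin. Slc40a1 was at 10.5, 12.5 and 12.9 CPM with irisin, a log2 fold change of 0.22 ± 0.17 (SE) with a 95% interval of -0.16 to 0.61, and the range overlapped that of the control mice. Tfrc was at 112.4, 115.9 and 105.4 CPM, a log2 fold change of 0.07 ± 0.09 (SE) with an interval of -0.12 to 0.26. Fth1 was at 2754.7, 2901.5 and 3463.2 CPM with irisin and at 3224.2, 3148.7 and 2724.1 CPM in control mice, with a log2 fold change of 0.004 ± 0.12 (SE). Ftl1 (-0.06 ± 0.12), Trf (0.02 ± 0.14), Cp (0.01 ± 0.19), Aco1 (-0.01 ± 0.06) and Ireb2 (0.07 ± 0.09) also overlapped. Thus 0 of 8 iron genes were separated, beside 15.1% of all tested genes. edgeR called 24 genes (0.109%), DESeq2 called 158 (0.721%), and 8.97% of all genes had an unadjusted p under 0.05, again with 0 iron genes in each.

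Delayed irisin with MPTP against MPTP alone asks whether irisin given after the toxin altered the state it left. Aco1 was at 41.0, 40.4 and 39.9 CPM with delayed irisin, below each of the MPTP treated mice at 42.0 to 45.0 CPM and close to the control mice at 40.4 to 41.2 CPM. The log2 fold change was -0.11 ± 0.06 (SE), with a 95% interval of -0.23 to 0.02 (edgeR unadjusted p = 0.0831, Benjamini-Hochberg adjusted p = 0.9995). This comparison and that of MPTP with control share the MPTP treated mice. Aco1 was 1 of 8 iron genes without overlap, beside 10.7% of all tested genes.

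Slc40a1 was at 13.8, 8.46 and 9.75 CPM with delayed irisin, and this range covered all 3 MPTP treated mice. The log2 fold change was -0.19 ± 0.17 (SE), with a 95% interval of -0.57 to 0.19. Tfrc was at 94.5, 100.8 and 96.6 CPM, a log2 fold change of 0.01 ± 0.09 (SE). The remaining log2 fold changes were 0.04 ± 0.14 for Trf, -0.03 ± 0.12 for Fth1, -0.08 ± 0.12 for Ftl1, 0.01 ± 0.19 for Cp and 0.01 ± 0.09 for Ireb2. edgeR called 1 gene (0.00456%), DESeq2 called 31 (0.141%) and 3.90% of all genes had an unadjusted p under 0.05, with 0 iron genes in each.

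The interaction of irisin and MPTP in the delayed treatment experiment tests whether irisin shifted a gene differently with and without the toxin. Slc40a1 had the largest value of the 8 genes, a log2 difference of -0.42 ± 0.25 (SE) with a 95% interval of -0.96 to 0.13 (edgeR unadjusted p = 0.120, Benjamini-Hochberg adjusted p = 0.932). Aco1 (-0.10 ± 0.08), Ireb2 (-0.06 ± 0.13), Tfrc (-0.06 ± 0.12), Fth1 (-0.03 ± 0.16), Ftl1 (-0.01 ± 0.16), Trf (0.02 ± 0.20) and Cp (0.001 ± 0.27) were nearer to 0. By edgeR 9 genes (0.0411%) were called for the interaction, by DESeq2 64 (0.292%), and 5.57% had an unadjusted p under 0.05, with 0 iron genes in each.

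A wider list of 30 genes of iron handling covers uptake without transferrin (Slc11a2, Slc39a14, Slc39a8), ferrireductases (the Steap genes and Cybrd1), hormone signalling (Hamp, Hfe, Hjv, Bmp6, Tmprss6), heme and mitochondrial iron. For these, 27 genes were tested in each experiment and 0 passed an adjusted p of 0.05 by edgeR in any of the 6 comparisons. In the pre-treatment experiment Hamp and Ftmt were not listed and Hephl1 did not pass the filter on low counts, so these were not tested there. In the delayed treatment experiment all 30 were listed, and those not tested fell to the same filter. At an unadjusted p under 0.05 the counts were 1 higher and 0 lower for MPTP and 1 higher and 1 lower for irisin pre-treatment in the first experiment. In the second experiment they were 1 higher and 2 lower for MPTP, 0 for irisin alone, 0 higher and 1 lower for delayed irisin, and 2 higher and 0 lower for the interaction. The shares over all tested genes were 6.03, 6.22, 8.33, 8.97, 3.90 and 5.57% in the same order. Medians over the list stayed between -0.06 and 0.01 in the 5 group comparisons, and 0.08 for the interaction.

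The extreme values of that list came from genes that varied widely between mice. Steap1, a metalloreductase, had the highest log2 fold change with MPTP in the pre-treatment experiment (2.70 ± 1.79 SE) and the lowest with irisin pre-treatment (-2.29 ± 1.75 SE). It was at 3.52 CPM in the MPTP treated mouse with high choroid plexus markers and at 0 to 0.58 CPM in the other 8 mice. Flvcr1, a heme exporter, was lowest with MPTP in that experiment (-0.57 ± 0.62 SE), highest with irisin pre-treatment (0.54 ± 0.62 SE), and lowest with delayed irisin (-0.84 ± 0.64 SE) and for the interaction (-0.77 ± 0.90 SE). Its values ran from 8.87 to 41.2 CPM and from 5.63 to 26.7 CPM over the mice of the 2 experiments.

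Lcn2, a secreted protein that binds iron-carrying siderophores, had the lowest log2 fold change with MPTP (-2.59 ± 0.86 SE) and with irisin alone (-1.80 ± 0.84 SE) in the delayed treatment experiment. It was also highest with delayed irisin (1.21 ± 0.84 SE) and for the interaction (3.01 ± 1.19 SE). Control mice were at 2.13, 8.04 and 1.05 CPM and MPTP treated mice at 0.74, 0.52 and 0.60 CPM, with an edgeR unadjusted p of 0.0122 and a Benjamini-Hochberg adjusted p of 0.436. One control mouse, at 8.04 CPM, stood above all 11 other mice of the experiment. Tmprss6, a protease of hepcidin signalling, was highest with MPTP (1.20 ± 1.41 SE) and with irisin alone (0.61 ± 1.41 SE) at no more than 0.50 CPM in any mouse of that experiment.

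Levels of the iron genes were set against marker levels of the cell types known to express them, over all 21 mice after subtracting each experiment's mean, in 6 relations chosen together. Fth1 followed the mean level of 8 oligodendrocyte markers, with Pearson's r = 0.84 (permutation p = 2e-05, Benjamini-Hochberg adjusted p = 0.00012) and Spearman's rho = 0.83 (permutation p = 4e-05). Without the 2 mice farthest from the median marker level r was 0.73. Within the pre-treatment experiment r was 0.96 (exact permutation p = 0.000107, n = 9). Within the delayed treatment experiment r was 0.67 (permutation p = 0.0169, adjusted p = 0.0854, n = 12).

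Trf followed the same markers, with r = 0.75 (permutation p = 0.00011, adjusted p = 0.00033), rho = 0.83 (permutation p = 3e-05) and r = 0.71 without the 2 farthest mice. Its r was 0.86 in the pre-treatment experiment (exact permutation p = 0.00304, n = 9) and 0.63 in the delayed treatment experiment (permutation p = 0.0285, adjusted p = 0.0854, n = 12). Genes and markers come from the same libraries, so a library's makeup enters both measures. Mice with more oligodendrocyte marker RNA had more Fth1 and Trf message, within groups as well (r = 0.84 and 0.81 after subtracting group means).

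**Figure D4:**
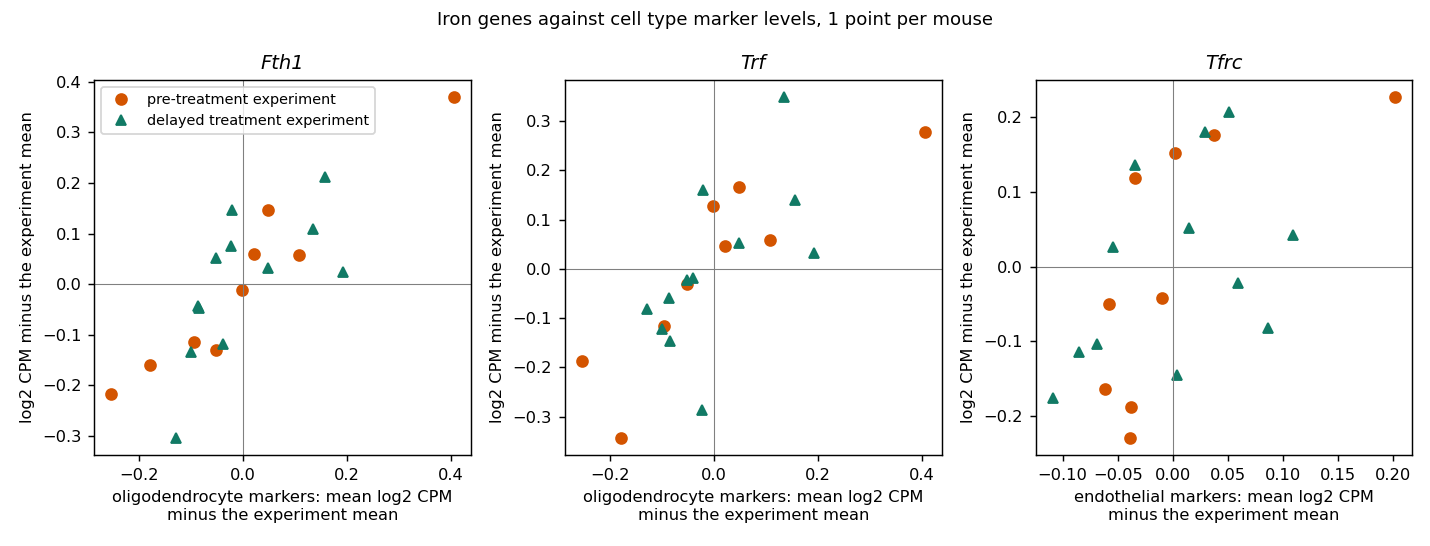
Level of Fth1, Trf and Tfrc against the mean level of cell type markers, both as log2 CPM minus the experiment mean, 1 point per mouse, with circles for the pre-treatment and triangles for the delayed treatment experiment. Points rise to the right in each panel, with r = 0.84 for Fth1, 0.75 for Trf and 0.56 for Tfrc, and 1 control mouse of the pre-treatment experiment lies far right in all 3 panels.

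Tfrc followed endothelial markers less closely, with r = 0.56 (permutation p = 0.00678, adjusted p = 0.0136) and rho = 0.63 (permutation p = 0.00236). Without the 2 farthest mice r was 0.48 (permutation p = 0.0297, adjusted p = 0.0593, n = 19), and after subtracting group means it was 0.66 over all 21 mice (permutation adjusted p = 0.0683), both short of the threshold after adjustment. Within the experiments r was 0.69 (exact permutation p = 0.006, n = 9) and 0.42 (permutation p = 0.171, n = 12). Slc40a1 gave r = 0.32 with endothelial markers (permutation p = 0.198, adjusted p = 0.298) and rho = 0.16 (permutation p = 0.482). Its r was 0.72 in the pre-treatment experiment (exact permutation p = 0.0208, n = 9), -0.26 in the delayed treatment experiment (permutation p = 0.417, n = 12) and -0.10 without the 2 farthest mice. After subtracting group means its r was 0.04 over all 21 mice (permutation adjusted p = 0.883). Trf with choroid plexus markers (r = 0.26, rho = 0.24, r = 0.07 without the 2 farthest mice, permutation adjusted p = 0.328) and Cp with astrocyte markers (r = 0.04, rho = -0.05, r = 0.13 without them, permutation adjusted p = 0.872) gave no relation past the threshold.

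For each iron gene the most similar genes of 21153 were named by Pearson's r over the same 21 centred values, as a description. Fth1 was most like Mag (r = 0.88), itself one of the oligodendrocyte markers and a protein of myelin, and S100b (r = 0.88). Trf was most like Arsg (r = 0.85) and Gjb1 (r = 0.84), the latter a gap junction protein of oligodendrocytes. Ireb2 was most like Sec63 (r = 0.88) and Dok6 (r = 0.87). Tfrc was most like Mrpl42 (r = 0.77) and Selenop (r = 0.76), Slc40a1 like Usp6nl (r = 0.78) and Trim59 (r = 0.77), and Cp like F13a1 (r = 0.78) and Hes3 (r = 0.77). Ftl1 (6330562C20Rik, r = 0.75, and Zbtb17, r = 0.74) and Aco1 (Gm13630 and 6530437J22Rik, both r = 0.74) had the lowest leading values.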

How the data were processed

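RNA-seq tables of 21 mice in 7 groups of 3 were used. The deposited tables hold, for each gene and mouse, raw counts that the authors obtained with featureCounts, and FPKM values. The submitters' processing notes name HISAT, StringTie, edgeR and mm9, but positions in both tables match GRCm38, which is the build printed. Whether counting used strand is not given in the sources used here, so reads of overlapping genes cannot be told apart by strand. The tables' gene descriptions were not used.

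Mice were grouped by the labels. Total counts were 66.7 to 75.6 M (mega) per mouse in the pre-treatment and 48.8 to 77.2 M in the delayed treatment experiment, and each iron gene had at least 431 counts in every mouse. No pair of mice within a group matched within sampling noise (lowest chi-square per gene 37.5 over 21 pairs). Nothing says whether mice shared a litter or cage.

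The two-sided quasi-likelihood test of edgeR 4.0.16 (R 4.3.3) was run on counts that passed filterByExpr (min.count 10, min.total.count 15), after TMM scaling, with all groups of an experiment in 1 fit. Benjamini-Hochberg adjustment covered every tested gene, and an adjusted p under 0.05 was the threshold. Standard errors are the log2 fold change divided by the square root of F. log2 CPM used a prior count of 2. Correlations were tested two-sided with 100000 permutations within experiment, or exactly for 9 mice (scipy 1.17.1). For values centred on group means the permutations were made within groups. Alternatives were DESeq2 1.42.0, median ratio scaling, no filter, only the groups compared, a replicate block, and leaving out each mouse. Scripts were tested on simulated counts.

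The 8 genes, the wider iron list and the marker lists were chosen with earlier results of these data known. The genes named besides the 8 are those of the wider list with the largest and smallest log2 fold change in each comparison, the 2 most similar genes per iron gene, and Cldn5, Cx3cr1 and Ncoa4, the last 3 chosen after their values were seen.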

Additional observations from a re-analysis of the deposited data

How the results depend on the processing

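Each iron gene had at least 431 counts in every mouse, and precision rests on 3 mice a group. Their count of calls by edgeR stayed at 0 in every comparison under median ratio scaling, no filter, only the groups compared (not run for the interaction, which needs all 4), a replicate block and each left-out mouse, and DESeq2 called 1, Slc40a1 with MPTP in the pre-treatment experiment. Genes called over the whole table depended on the settings. With DESeq2 they were 104 for MPTP and 194 for irisin in the pre-treatment experiment, and 191 for MPTP, 158 for irisin alone, 31 for delayed irisin and 64 for the interaction in the delayed treatment experiment. With only the groups compared they were 10 for MPTP in the pre-treatment experiment, and 10 for MPTP, 14 for irisin alone and 9 for delayed irisin in the delayed one. Without a filter, 2 were called for delayed irisin. The cause of these differences was not tested.

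Same-numbered mice gave correlations of deviations of -0.08 to 0.10 (9 pairs) and -0.08 to 0.04 (18 pairs). Differently numbered mice gave -0.11 to 0.14 (18 pairs) and -0.07 to 0.08 (36 pairs). Of the mice, 4 of 9 and 0 of 12 were closest to their own number. These values gave no clear sign that the replicate number pairs mice, and they cannot exclude a shared litter or cage. With the number as a block, the genes called were 2 for MPTP and 8 for irisin in the pre-treatment experiment, and 17 for MPTP and 14 for irisin alone in the delayed one. The block turned log2 fold changes near 0 of Ireb2 with MPTP (-0.0014) and Fth1 with irisin alone (-0.0026) in the delayed experiment.

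Without each mouse in turn, the genes called were 7 to 17 for MPTP and 10 to 26 for irisin in the pre-treatment experiment, and 16 to 35 for MPTP, 16 to 29 for irisin alone, 1 to 7 for delayed irisin and 7 to 19 for the interaction. Slc40a1 kept its direction in all 6 comparisons. Log2 fold changes of genes that were not called changed sign with single mice. In the pre-treatment experiment these were, for MPTP, Aco1 (-0.025 to 0.067), Fth1 (-0.25 to 0.012), Ireb2 (-0.051 to 0.12) and Trf (-0.13 to 0.038), and for irisin Fth1 (-0.14 to 0.039) and Ireb2 (-0.054 to 0.026). In the delayed experiment they were, for MPTP, Cp (-0.067 to 0.18), Fth1 (-0.089 to 0.026), Ftl1 (-0.054 to 0.21), Ireb2 (-0.082 to 0.061) and Trf (-0.15 to 0.18). For irisin alone they were Aco1 (-0.032 to 0.0099), Cp (-0.12 to 0.20), Fth1 (-0.10 to 0.069), Ftl1 (-0.16 to 0.097), Ireb2 (-0.0074 to 0.14), Tfrc (-9.0e-05 to 0.16) and Trf (-0.11 to 0.22). For delayed irisin they were Cp (-0.063 to 0.16), Fth1 (-0.12 to 0.098), Ireb2 (-0.050 to 0.077), Tfrc (-0.025 to 0.088) and Trf (-0.032 to 0.089). For the interaction they were Cp (-0.18 to 0.14), Fth1 (-0.12 to 0.093), Ftl1 (-0.17 to 0.085), Ireb2 (-0.13 to 0.019), Tfrc (-0.14 to 0.016) and Trf (-0.18 to 0.15).

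Other sign changes were close to 0. Without a filter, delayed irisin gave Cp -0.0012, Tfrc -0.0017 and Ireb2 -0.0059, and the interaction gave Cp -0.021 and Trf -0.00057. The interaction of Cp was -0.0023 with median ratio scaling and with DESeq2.

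Of the correlations, Fth1 (0.67) and Trf (0.63) with oligodendrocyte markers and Tfrc with endothelial markers (0.42) lost the threshold in the delayed experiment alone. Tfrc also lost it after subtracting group means (0.66) and without the 2 farthest mice (0.48). Slc40a1 with endothelial markers passed it in the pre-treatment experiment alone (0.72) and was negative in the delayed one (-0.26) and without the 2 farthest mice (-0.10). Cp with astrocyte markers was -0.049 by Spearman and -0.16 in the pre-treatment experiment.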

Other observations

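Ncoa4, the receptor that delivers ferritin to lysosomes for breakdown, is part of the wider iron list and was picked here after its values were seen. In the pre-treatment experiment it was at 27.8, 38.1 and 101.2 CPM in control mice, at 31.1, 120.5 and 124.0 CPM in MPTP treated mice and at 36.4, 30.6 and 26.6 CPM in irisin pre-treated mice. In the delayed treatment experiment it was at 125.9, 29.1 and 125.7 CPM in control mice, at 79.1, 33.0 and 32.1 CPM with irisin alone, at 33.8, 30.3 and 32.5 CPM in MPTP treated mice and at 32.1, 63.7 and 28.7 CPM with delayed irisin. Of the 21 mice, 5 were at 101.2 to 125.9 CPM and the others at 26.6 to 79.1 CPM, with mice of both kinds in 3 of the 7 groups. Log2 fold changes are given for 2 comparisons with an unadjusted p under 0.05. They were -1.56 ± 0.58 (SE) for irisin pre-treatment with MPTP against MPTP (edgeR unadjusted p = 0.0263, Benjamini-Hochberg adjusted p = 0.727) and -1.54 ± 0.53 (SE) for MPTP against control in the delayed treatment experiment (edgeR unadjusted p = 0.0146, adjusted p = 0.462). In the pre-treatment experiment MPTP treated mice at 120.5 and 124.0 CPM stood above all control mice, and the one at 31.1 CPM lay within their range. In the delayed treatment experiment the control mice at 125.9 and 125.7 CPM stood above all MPTP treated mice, and the one at 29.1 CPM lay below them all. The MPTP treated and control mice thus overlapped in both experiments.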
